A study of Schmidtea mediterranea with 18 samples.

Results

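The comparison described here is the early effect of beta-catenin-1 knockdown on trunk fragments of Schmidtea mediterranea, a planarian flatworm that replaces lost tissue from its stem cells. It takes the 3 Bcat RNAi libraries of days 1, 2 and 3 after amputation against the 3 control RNAi libraries of the same days, paired by day, which is 6 of the 18 libraries in the series. Bcat RNAi animals, clonal asexual strain CIW4, ate RNA directed against Smed-Bcatenin1. Control RNAi animals, of the same strain and titled GFP RNAi, ate a control RNA. Animals of both groups had 3 feeds and were cut 3 days after the last one. The other 12 libraries are Bcat RNAi and control RNAi of days 4 to 6 and APC RNAi of days 1 to 6. Each library holds RNA from 3 biological replicates mixed before sequencing, so there is 1 library per treatment and day. Days therefore serve as replicates here. The p-values weigh an average difference against a spread pooled over all 18 libraries. They do not measure whether the difference held at each day, and say nothing of the spread between animals. The material is polyA RNA of whole fragments, in which fewer cells of a type and less RNA per cell cannot be told apart. Most labels name trunk fragments, although the treatment protocol speaks of tail fragments.

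Beta-catenin is the effector of canonical Wnt signalling: when Wnt ligands block its breakdown, it enters the nucleus and, with TCF/LEF factors, switches on target genes. In planarians beta-catenin-1 sets the head-to-tail axis. Animals that lack it regrow a head where a tail should form. The early days after a cut are those in which the wound closes, stem cells divide and the new axis is laid down.

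The files give transcripts by SmedASXL identifier and do not pair them with gene names, so at most 2 transcripts in each direction are named per comparison and no role is given for them. For the same reason the level of the beta-catenin-1 transcript itself, the usual check of a knockdown, was not read, and neither were tissue markers.

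Depth was alike in both groups. Aligned reads numbered 46887486 to 57679076 in the Bcat RNAi libraries and 47683039 to 58308153 in the control libraries. Unaligned reads made up 4.75% to 5.83% and 4.54% to 6.06% of all reads. The most abundant transcript took 9.92% to 10.1% of aligned reads in Bcat RNAi and 10.98% to 12.4% in control. Of 82955 transcripts, 40920 had enough reads to be tested. Levels are given as CPM, the read count per transcript scaled to the library's total after TMM, a trimmed-mean correction for RNA composition. They are not divided by length, so they compare libraries and not transcripts.

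The day 1 libraries stood apart from the rest of their own groups. Across 15097 transcripts that averaged 1 or more in log2 CPM, the Bcat RNAi libraries of days 2 and 3 correlated with r = 0.996, whereas that of day 1 correlated with them with r = 0.990 and 0.986. The control libraries of days 2 and 3 likewise correlated with r = 0.996, and that of day 1 with them with r = 0.994 and 0.992. Between the groups, the Bcat RNAi library of day 1 correlated with control of days 1 and 2 with r = 0.9879 and 0.9884, above its r of 0.9859 with Bcat RNAi of day 3. These are descriptions across transcripts of libraries of similar depth. Results that rest on day 1 are given below with and without it.

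Bcat RNAi at days 1 to 3 was marked by near-complete loss of a small number of abundant transcripts and by gain of others, seen from the first day on. As transcripts carry no names, whether the targeted one is among those lost was not read. SmedASXL_048827 had 0.381, 0.115 and 0.100 CPM in Bcat RNAi at days 1, 2 and 3, against 49.5, 34.9 and 30.3 CPM in control. These are 19, 7 and 5 reads against 2801, 1707 and 1767, so the groups lie far apart at each day. By edgeR's quasi-likelihood test, it fell with a log2 fold change of -7.65 and a standard error (SE) of 0.18 (adjusted p = 1.39e-19, Benjamini-Hochberg over all 40920 transcripts). SmedASXL_012097 had 1.504, 0.345 and 0.200 CPM in Bcat RNAi, against 175.7, 87.5 and 72.9 CPM in control. Every Bcat RNAi library was far below every control library, and the level was lowest at day 3 in both groups. The edgeR estimate was -7.48 ± 0.18 log2 units (SE, adjusted p = 2.64e-19).

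Among the gains, SmedASXL_058193 was nearly absent from control and climbed in Bcat RNAi. It had 8.34, 14.5 and 23.9 CPM in Bcat RNAi at days 1, 2 and 3, against 0.619, 0.245 and 0.343 CPM in control, which are 35, 12 and 20 reads. It rose by 5.18 ± 0.32 log2 units (SE, edgeR adjusted p = 3.13e-11). SmedASXL_014712 was present in both groups, at 44.9, 64.4 and 64.9 CPM in Bcat RNAi and 9.68, 11.9 and 12.4 CPM in control. It rose by 2.35 ± 0.08 log2 units (SE, edgeR adjusted p = 1.35e-16). On the log2 CPM scale the groups differed by 2.21, 2.44 and 2.39 over the 3 days, so nearly the whole difference was present on the first.

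**Figure D1:**
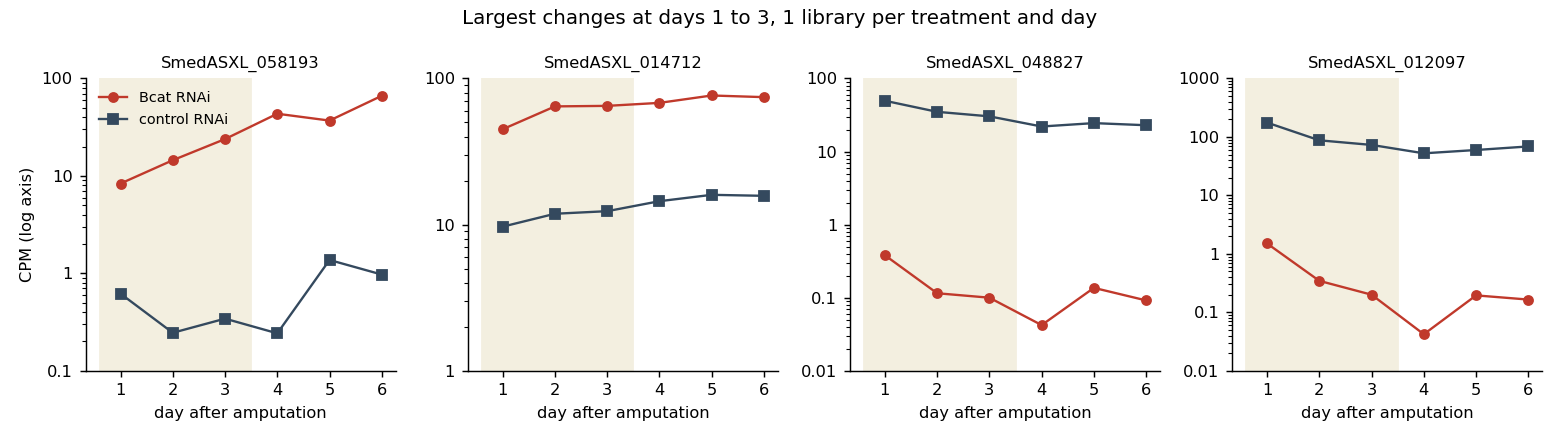
Level in CPM (log axis, 1 library per point) against day after amputation, in Bcat RNAi (circles) and control RNAi (squares). Days 1 to 3 are shaded. Shown are 2 transcripts that rose and 2 that fell at days 1 to 3. Their changes were the largest among called transcripts averaging at least 1 in log2 CPM with 1 direction at all 3 days. The groups do not overlap at any day, and SmedASXL_058193 in Bcat RNAi has 8.34 CPM at day 1 and 66.4 CPM at day 6.

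The APC RNAi libraries, in which a brake on beta-catenin is targeted, share the control libraries with this comparison, so their levels are set beside it without a test of likeness. Over days 1 to 3, SmedASXL_048827 averaged 0.199 CPM ± 0.158 in Bcat RNAi, 54.1 CPM ± 27.5 in APC RNAi and 38.2 CPM ± 10.03 in control (SD, n = 3 libraries each). SmedASXL_012097 averaged 0.683 CPM ± 0.715 in Bcat RNAi, 114.5 CPM ± 80.6 in APC RNAi and 112.02 CPM ± 55.6 in control. SmedASXL_014712 averaged 58.1 CPM ± 11.4 in Bcat RNAi, 4.99 CPM ± 0.131 in APC RNAi and 11.3 CPM ± 1.42 in control. SmedASXL_058193 averaged 15.6 CPM ± 7.82 in Bcat RNAi, 0.556 CPM ± 0.0995 in APC RNAi and 0.402 CPM ± 0.194 in control. Against the same control libraries, APC RNAi was called higher for SmedASXL_048827 (log2 fold change 0.41, edgeR adjusted p = 0.0082) and lower for SmedASXL_014712 (-1.18, 7.01e-09), the other way from Bcat RNAi, while the other pair was not called (SmedASXL_058193 0.40, adjusted p = 0.65; SmedASXL_012097 -0.08, 0.683). The authors' deposited table, titled as significant results, compares APC RNAi with Bcat RNAi over all 6 days, and negative means higher in Bcat RNAi. In it SmedASXL_048827 has a log2 fold change of 4.91, SmedASXL_014712 one of -3.65 and SmedASXL_058193 one of -2.54. SmedASXL_012097 is not listed, which is not read here as no difference. How those fold changes were fitted is not given, so their sizes are not compared with the levels above.

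In all, 3329 transcripts differed between Bcat RNAi and control over days 1 to 3, 8.14% of those tested at an adjusted p under 0.05 (edgeR). Of these, 1424 were higher in Bcat RNAi (3.48%) and 1905 lower (4.66%). At each of the 3 days, 1376 of the 1424 were higher (21% of all tested) and 1647 of the 1905 lower (18.8%). A call thus does not require the same direction at every day. Small changes made up the greater share, with a median absolute log2 fold change of 0.42 for the higher and 0.50 for the lower transcripts. At least 2-fold higher were 234 transcripts (0.572%), and at least 2-fold lower 387 (0.946%). The balance moved further towards loss as the size grew, with 14 (0.0342%) at least 8-fold higher and 40 (0.0978%) at least 8-fold lower. Such large folds at low counts depend on how few reads are handled, and 20 of the 40 averaged at least 2 CPM in control. These 40 transcripts together had 37.9, 28.0 and 26.2 CPM, before TMM scaling, in Bcat RNAi at days 1, 2 and 3, against 1116, 908.5 and 835.8 CPM in control.

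The number of calls depended on which days entered. Without day 1, 1643 transcripts were higher and 2801 lower, 1160 of them at least 2-fold lower and 105 at least 8-fold lower. Without day 2, 577 were higher and 669 lower, and without day 3, 319 and 582. When the model held no term for day, so that libraries of the same day were not paired, 368 were higher and 726 lower.

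Calls were unevenly spread over abundance. Of 22863 transcripts below 1 CPM on average, 1.06% were higher and 1.3% lower, while of 2597 over 64 CPM, 10.9% were higher and 8.51% lower. Losses outnumbered gains most at 4 to 16 CPM, where 290 of 4995 were higher and 588 lower. The median log2 fold change lay between -0.04 and 0.04 in each of the 5 abundance classes, so the groups showed no general shift with abundance. The size of the called changes shrank with abundance, from a median absolute log2 fold change of 1.48 below 1 CPM to 0.33 over 64 CPM. At low counts only large changes can pass the threshold. The shares called and the sizes of called changes thus depend on read counts and do not by themselves describe the response.

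**Figure D2:**
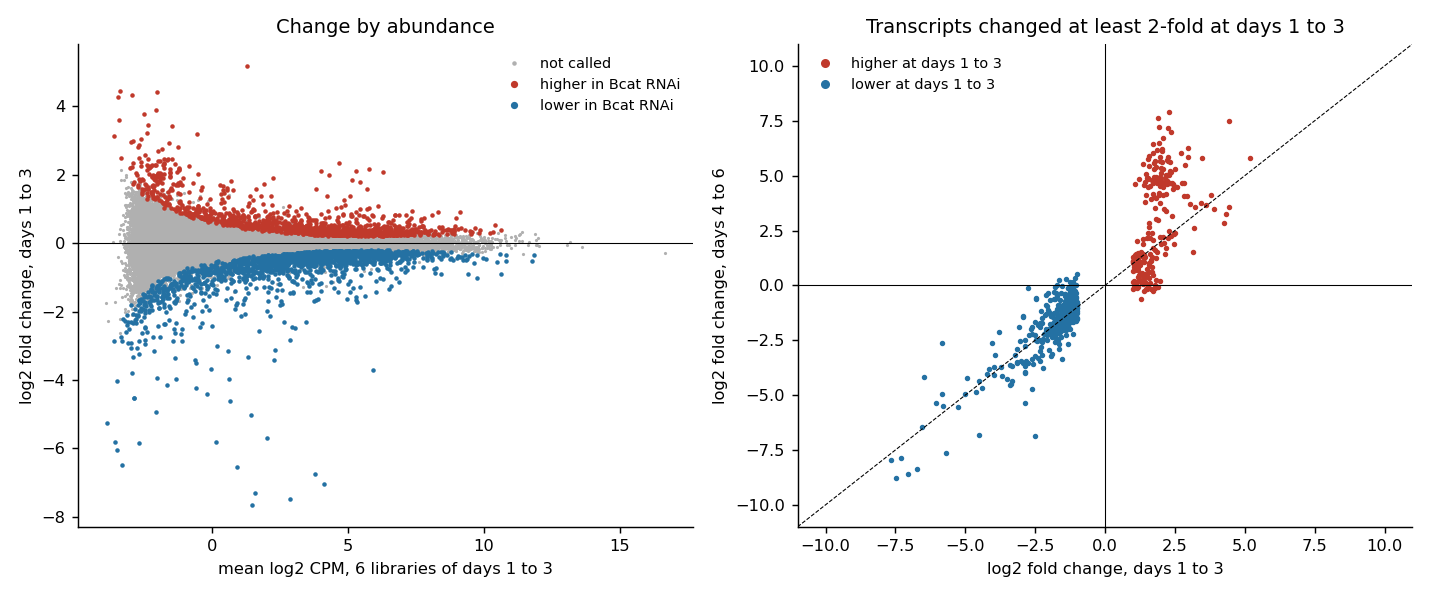
Left, log2 fold change of Bcat RNAi over control at days 1 to 3 against mean log2 CPM of the 6 libraries, with called transcripts in colour; right, the log2 fold change at days 4 to 6 against that at days 1 to 3 for the 234 higher and 387 lower transcripts that changed at least 2-fold, with a dashed line of equal change. The losses reach -7.65 and the gains 5.18 on the left; on the right most points share their sign between the axes, and a cluster of higher transcripts lies well above the line.

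Transcripts of at least 1 CPM on average, for which folds rest on more reads, were also taken alone. Of 18057 such transcripts, 51 were at least 2-fold higher (0.282%) and 150 at least 2-fold lower (0.831%). Of the 51, 50 were higher at each of the 3 days, as were 23.3% of the 18057 and 21% of all 40920 tested, and in 43 all 3 Bcat RNAi libraries lay above all 3 control libraries, an order that 12% of the 18057 showed. Of the 150, 117 were lower at each day, as were 26.7% of the 18057 and 18.8% of all tested, and in 115 all 3 Bcat RNAi libraries lay below the control libraries, against 14.5% of the 18057. Since these transcripts were chosen on the same libraries, the shares describe them and test nothing. The 51 changed by a median of 1.39 log2 units and the 150 by 1.37. Of the higher ones 8 changed at least 4-fold, and of the lower ones 32. Without day 1 the counts were 91 higher and 364 lower.

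The libraries of days 4 to 6, none of which the day 1 to 3 averages use, were then read for these transcripts. Those libraries did enter the estimate of spread behind the calls of both periods, so the calls are not independent. Of the 51 higher transcripts, 51 were also called higher at days 4 to 6 (100%), where 13.5% of all 18057 were. Of the 150 lower ones, 134 were called lower (89.3%), where 8.21% of all 18057 were. The median log2 fold change at days 4 to 6 was 1.5 for the 51 and -1.40 for the 150. For 47 of the 51 and 119 of the 150, it was still at least 2-fold. The sign was the same in both periods for 51 of the 51 and for 144 of the 150.

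Day by day, the median differences were smaller at day 1 than later. The 51 higher transcripts stood at a median log2 CPM difference of 1.00 on the first day, 1.5 on the next and 1.60 on day 3, and 45 of them differed more at day 3 than at day 1. The 150 lower ones stood at -1.20, -1.77 and -1.74, and 112 differed more at day 3. Only 117 of the 150 were lower at each of the 3 days. Some of the rest were higher at day 1, such as SmedASXL_057579 at 1.06, -2.86 and -3.35, so their day 1 median mixes smaller and reversed differences. Growth with time cannot be told apart here from day 1 libraries that differ for another reason. At days 4, 5 and 6 the medians were 1.48, 1.56 and 1.66 for the higher and -1.51, -1.45 and -1.32 for the lower ones. With 1 library per treatment and day, no single day has a test.

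**Figure D3:**
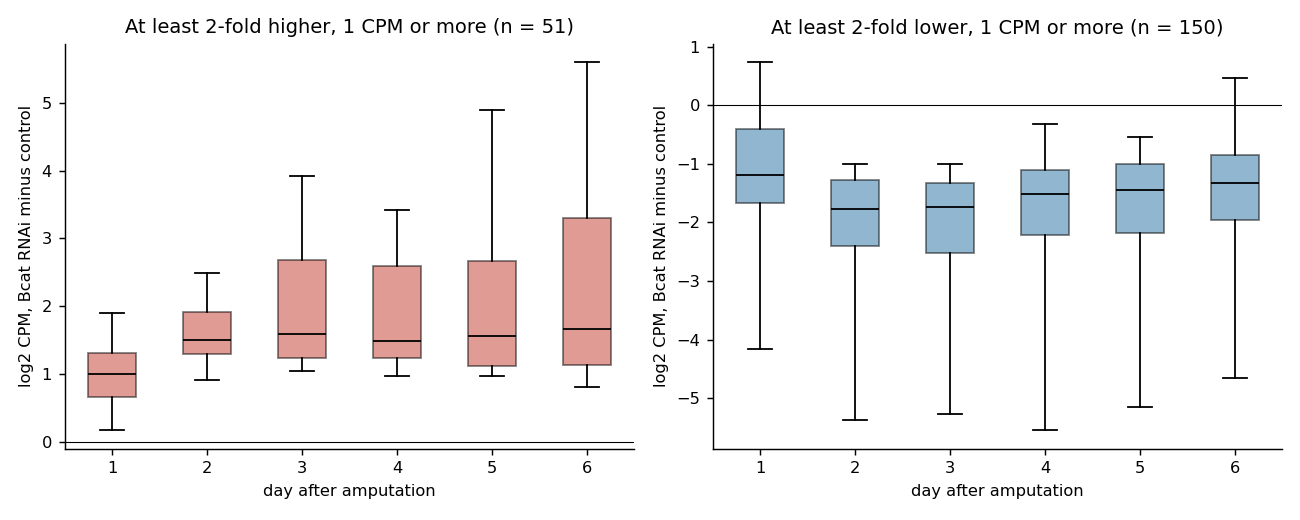
Difference in log2 CPM, Bcat RNAi minus control, at each day for the transcripts of at least 1 CPM that were at least 2-fold higher (left, n = 51) or lower (right, n = 150) at days 1 to 3; boxes give quartiles, the line the median and whiskers run to percentiles 5 and 95 over transcripts. The median is 1.00 at day 1 and 1.60 at day 3 on the left, and -1.20 and -1.74 on the right.

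Among all 15102 transcripts that averaged at least 2 CPM, the number with at least a 2-fold difference on a given day rose from day 1 to day 3. At day 1, 31 were higher and 112 lower; at day 2, 61 and 239; at day 3, 76 and 266. Losses then fell, with 81 higher and 195 lower at day 4 and 117 and 142 at day 5. By day 6 gains and losses had drawn level, with 139 higher and 145 lower. The spread of the difference over these transcripts (median absolute deviation) was 0.198, 0.212 and 0.267 at days 1, 2 and 3 on the log2 CPM scale. At days 4, 5 and 6 it was 0.238, 0.242 and 0.201.

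Each day was also read with calls made from the libraries of the other days. Of 190 transcripts called at least 2-fold lower without day 2, 97.9% were lower at day 2, and of 167 called without day 3, 100% were lower at day 3, where 48.4% and 48.8% of all tested transcripts were. Of 152 called at least 2-fold higher without day 2, 92.1% were higher at day 2, and of 109 called without day 3, 93.6% were higher at day 3, where 51.6% and 51.2% of all tested transcripts were. Day 1 was different. Of 309 transcripts called at least 2-fold higher without day 1, 84.8% were higher at day 1 (51.5% of all tested), with a median difference of 0.72 there and a median log2 fold change of 1.83 at the other days. Of 1160 called at least 2-fold lower without day 1, 410 were lower at day 1, which is 35.3%, below the 48.5% of all tested transcripts, and the median difference at day 1 was 0.27. Without the 2-fold limit, 2801 transcripts were called lower without day 1, and 1576 of these (56.3%) were lower at day 1. Most transcripts called from the other days thus kept their direction at days 2 and 3, whereas at day 1 most of those at least 2-fold lower at the other days were not lower.

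The 750 that were not lower at day 1 were chosen for low Bcat RNAi relative to control at days 2 and 3 and the lack of it at day 1, so the order of their levels at days 1 to 3 is set in large part by the choice and is given as a description. Their summed level was 1973, 896.6 and 754.7 CPM in Bcat RNAi at days 1, 2 and 3, against 1479, 2452 and 2162 CPM in control. The control library of day 1 lay below those of days 2 and 3. At days 4 to 6 they summed to 901.3 to 1033 CPM in Bcat RNAi and 1607 to 1739 CPM in control. The 410 that were lower at day 1 too summed to 3056, 2172 and 2148 CPM in Bcat RNAi, against 6784, 5797 and 5890 CPM in control, an order that their choice also sets. Whether animals, handling or sequencing differed between these libraries was not tested, as the labels give no batch. Only 179 of the 750 were called with all 3 days, against 338 of the 410.

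A test of the day 1 difference against that of days 2 and 3 gave 639 transcripts with a higher value at day 1 (1.56% of those tested) and 142 with a lower value (0.347%; edgeR quasi-likelihood test, adjusted p under 0.05, 6 residual degrees of freedom). Day 1 has 1 library per treatment, whose spread was taken to be that of the other days. With DESeq2 the test gave 331 calls in all. Without day 3 it gave 438. Of the 639, 591 had their 3 highest levels in Bcat RNAi of day 1 and control of days 2 and 3, an order that 7.56% of all tested transcripts showed. Of the 142, 81 had the reverse order, as did 5.32% of all tested transcripts. The contrast itself favours these orders, and with 1 library per treatment at day 1 a change with time cannot be told apart from a library that differs for another reason.

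SmedASXL_065839 shows this pattern. It had 20.2, 3.75 and 3.22 CPM in Bcat RNAi at days 1, 2 and 3, against 7.81, 24.998 and 23.4 CPM in control. The difference was in favour of Bcat RNAi at day 1 and of control at days 2 and 3, a day 1 minus days 2 and 3 difference of 4.16 log2 units (SE 0.23, adjusted p = 2.20e-12, edgeR). SmedASXL_057579 had 3.61, 0.838 and 0.580 CPM in Bcat RNAi, against 1.71, 6.34 and 6.29 CPM in control, a difference of 4.20 (SE 0.38, adjusted p = 2.24e-08, edgeR). In both the highest control level was at day 2 and the highest Bcat RNAi level at day 1. Their APC RNAi libraries of days 1 to 3 averaged 6.32 CPM ± 0.821 and 1.41 CPM ± 0.276 (SD, n = 3), near the control level of day 1.

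The opposite order was held by SmedASXL_005730, which had 0.461, 7.87 and 5.72 CPM in Bcat RNAi, against 8.62, 5.52 and 2.01 CPM in control. It was low in Bcat RNAi at day 1 alone, and the difference was -5.15 (SE 0.43, adjusted p = 6.61e-09, edgeR). SmedASXL_006717 had 0.461, 6.30 and 4.72 CPM, against 5.60, 3.48 and 2.11 CPM in control, a difference of -4.59 (SE 0.41, adjusted p = 2.24e-08, edgeR). Averaged over days 1 to 3, neither was called against control, with log2 fold changes of -0.13 (SE 0.49, adjusted p = 0.918, edgeR) and 0.01 (SE 0.46, adjusted p = 0.995, edgeR). In APC RNAi they averaged 0.646 CPM ± 0.611 and 0.323 CPM ± 0.380 over those days (SD, n = 3), near the Bcat RNAi level of day 1.

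**Figure D4:**
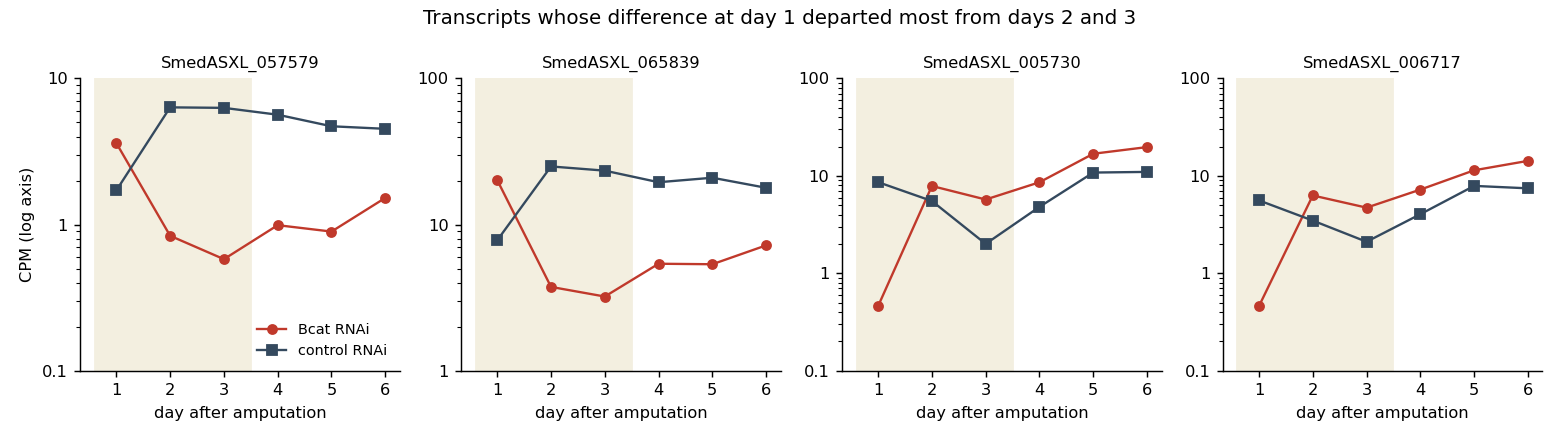
Level in CPM (log axis, 1 library per point) by day in Bcat RNAi (circles) and control RNAi (squares), with days 1 to 3 shaded. Shown are 2 transcripts each way whose difference at day 1 departed from that at days 2 and 3. Theirs were the largest departures among called transcripts averaging at least 1 in log2 CPM. The lines cross between day 1 and day 2 in each panel; SmedASXL_065839 in Bcat RNAi is at 20.2 CPM at day 1 and 3.75 CPM at day 2.

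The course of the control libraries from day 1 to day 3 was also read. Among 15099 transcripts of at least 2 CPM in control, 38 were at least 2-fold higher at day 3 than at day 1 in control. Only 1 of these 38 was higher at day 3 than at day 1 in Bcat RNAi, and 30 were at least 2-fold lower. That is 2.63% with the same sign, against 45.5% of the 15099. Their median day 3 minus day 1 difference was -1.56 in Bcat RNAi, 0.26 in APC RNAi and 1.3 in control. In APC RNAi, 0 of the 38 were at least 2-fold higher at day 3. The median Bcat RNAi minus control difference of the 38 was 0.85 at day 1 and -1.98 at day 3, the order described above for the day 1 libraries. A change with time cannot be told apart here from a day 1 library that differs for another reason. Transcripts at least 2-fold lower at day 3 in control numbered 42. Of these, 27 were lower at day 3 in Bcat RNAi too, which is 64.3% and near the 54.5% of the 15099, with medians of -0.70 in Bcat RNAi, -0.97 in APC RNAi and -1.20 in control. The set was chosen on 1 control library a day, so these are descriptions.

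A group of low-abundance gains also changed in level from day to day. With 1 library per treatment and day, a course over days cannot be told apart from a difference between libraries. Of the 234 transcripts at least 2-fold higher at days 1 to 3, 183 averaged below 1 CPM, and 87 of these had a log2 fold change of at least 4 at days 4 to 6. The 87, chosen after their values were seen, together had 4994, 1407 and 2107 reads in Bcat RNAi at days 1, 2 and 3, against 1977, 300 and 156 reads in control. Of these 3 days they were highest at day 1 in both groups and higher in Bcat RNAi at each day. In CPM they summed to 100.2, 23.13 and 42.15 in Bcat RNAi at days 1, 2 and 3, against 34.94, 6.137 and 2.674 in control. At days 4, 5 and 6 they summed to 17.6, 30.7 and 125.3 CPM in Bcat RNAi and 2.57, 0.793 and 1.41 CPM in control, a gap set in large part by their choice. In APC RNAi the sums at days 1 to 6 were 26.39, 7.118, 2.795, 1.44, 1.663 and 23.65 CPM. The other 96 of the 183 held a steadier level, at 40.8, 47.3 and 46.8 CPM in sum in Bcat RNAi at days 1, 2 and 3, against 16.6, 15.2 and 15.9 CPM in control.

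Early and late effects were then tested against each other. At days 4 to 6, 2813 transcripts were higher in Bcat RNAi (6.87% of those tested) and 2255 lower (5.51%). Called in both periods in the same direction were 1037 higher transcripts, 72.8% of the early and 36.9% of the late list, and 1157 lower ones, 60.7% of the early and 51.3% of the late list. The periods share no library, but the same fit of all 18 libraries set the spread for both, so the lists are not independent. Without day 3, 276 higher and 454 lower transcripts were shared, without day 2, 471 and 540, and without day 1 the shared lower ones numbered 1861. In opposite directions 2 transcripts were called, lower early and higher late.

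The test of the difference between the early and the late effect called 19 transcripts, 6 with a higher early value (0.0147%) and 13 with a lower one (0.0318%; edgeR quasi-likelihood test). At an unadjusted p under 0.05 there were 2557. DESeq2 called 34. The count was 68, 9, 80, 83 and 1 without days 1, 2, 3, 5 and 6, and 1 without a term for day, so it is not firm. All 6 with a higher early value were lower in Bcat RNAi in both periods, with the larger loss at days 4 to 6.

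SmedASXL_068695 had the largest difference of the 6 with a higher early value. It had 45.8, 33.2 and 18.3 CPM in Bcat RNAi at days 1, 2 and 3, against 54.0, 60.7 and 43.2 CPM in control, and fell by 0.77 on the log2 scale (SE 0.22, adjusted p = 0.0297, edgeR). At days 4 to 6 it averaged 1.08 CPM ± 1.44 in Bcat RNAi and 25.2 CPM ± 5.12 in control (SD, n = 3), which edgeR put at -4.66 ± 0.32 log2 units (SE, adjusted p = 1.79e-10). The early minus late difference was 3.90 (SE 0.40, adjusted p = 3.32e-05, edgeR), so most of this loss came after day 3. SmedASXL_081108 lost less, with 7.08, 4.42 and 4.40 CPM in Bcat RNAi against 9.24, 8.51 and 8.64 CPM in control. Its log2 fold change was -0.75 at days 1 to 3 and -2.19 at days 4 to 6, a difference of 1.44 (SE 0.21, adjusted p = 0.00823, edgeR) that was not called without day 6 (adjusted p = 0.104), with a stricter filter on low counts (0.114) or without a term for day (0.195).

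The reverse, a loss seen early and not late, was held by SmedASXL_005910 and SmedASXL_001082. SmedASXL_005910 had 2.13, 0.690 and 1.20 CPM in Bcat RNAi, against 4.51, 3.31 and 4.58 CPM in control, an edgeR estimate of -1.66 ± 0.22 log2 units (SE, adjusted p = 1.41e-05). At days 4 to 6 it averaged 2.94 CPM ± 1.05 in Bcat RNAi and 2.38 CPM ± 0.267 in control. SmedASXL_001082 had 4.97, 2.29 and 2.26 CPM in Bcat RNAi, against 12.3, 7.98 and 13.0 CPM in control, an edgeR estimate of -1.80 ± 0.21 log2 units (SE, adjusted p = 2.25e-06). At days 4 to 6 it averaged 6.36 CPM ± 2.50 in Bcat RNAi and 6.50 CPM ± 1.09 in control. For both, the Bcat RNAi and control libraries did not overlap at days 1 to 3 and overlapped at days 4 to 6. Their early minus late differences were -1.92 (SE 0.30, adjusted p = 0.00823, edgeR) and -1.74 (SE 0.29, adjusted p = 0.0133, edgeR). Neither was called without day 2 (adjusted p = 0.0566 and 0.0722), without day 4 (0.0595 and 0.0594), without day 6 (0.241 and 0.362), without a term for day (0.515 each), with the stricter filter (0.118 and 0.201) or with TMM factors from abundant transcripts (0.0733 and 0.125).

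**Figure D5:**
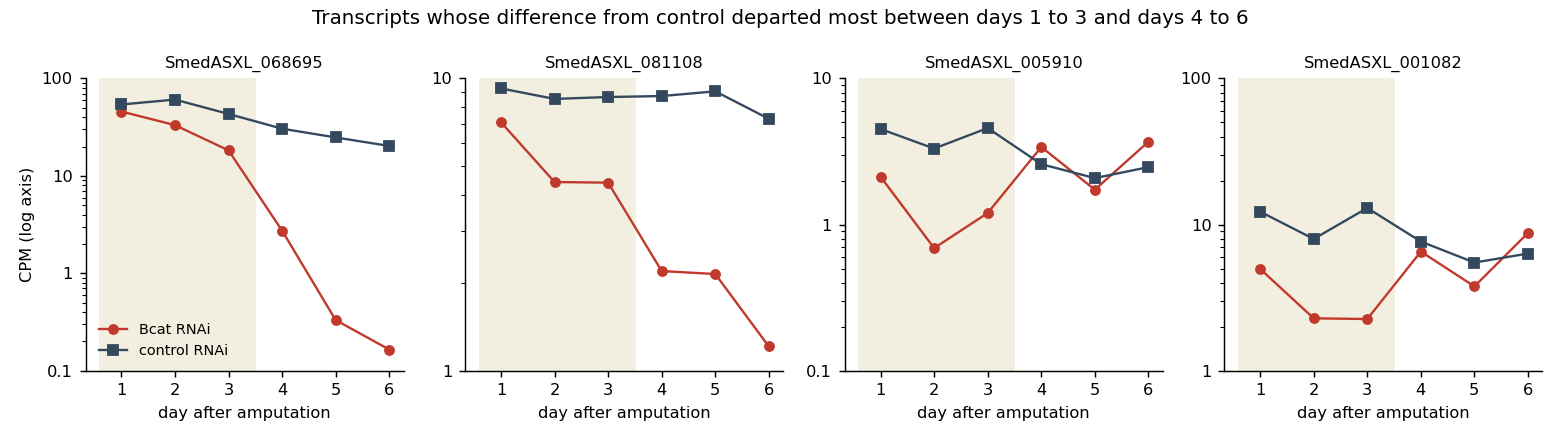
Level in CPM (log axis, 1 library per point) by day for the 4 transcripts whose difference from control departed most between days 1 to 3 (shaded) and days 4 to 6, in Bcat RNAi (circles) and control RNAi (squares). SmedASXL_068695 is lower in Bcat RNAi at each day, with the larger gap at days 4 to 6. SmedASXL_005910 and SmedASXL_001082 differ at days 1 to 3 and lie close together at days 4 to 6.

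The 4 transcripts named first did not show a called change between the periods. Their log2 fold changes at days 4 to 6 were 5.79 (SE 0.27) for SmedASXL_058193, 2.24 (SE 0.08) for SmedASXL_014712, -7.95 (SE 0.20) for SmedASXL_048827 and -8.77 (SE 0.22) for SmedASXL_012097, and the adjusted p of the early minus late difference was 0.887, 0.898, 0.938 and 0.578 (edgeR). A p that misses the threshold does not show that the effects were equal.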

How the data were processed

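The submitters' processing notes name Bowtie2 2.2.4, bcl2fastq 1.8.3 and DESeq2, the last with no version; settings, transcriptome source and strand use are not given in the sources used here. The deposited table holds unnormalized read counts of 82955 transcripts in 18 libraries. The rows of total and unaligned reads (5.22% unaligned) name no transcript and were left out. Placement of reads that fit several similar transcripts is not stated, which leaves values for near-identical transcripts uncertain.

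The authors' deposited DESeq2 table holds log2 fold changes, with a normalized signal, a test score and p-values per transcript, for APC RNAi against Bcat RNAi; only its log2 fold changes are quoted.

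The present tests used edgeR 4.0.16 (R 4.3.3). A filter by treatment and period (filterByExpr) kept 40920 transcripts; those left out held 0.218% of reads. TMM-scaled libraries were fitted with a mean for each treatment and period (days 1 to 3, days 4 to 6) and day as a block, using all 18 libraries (8 residual degrees of freedom), and tested with glmQLFTest, Benjamini-Hochberg adjusted, at 0.05. A model with day 1 terms tested day 1 against days 2 and 3. Differences at single days are log2 CPM with a prior count of 2. The labels pair libraries by day. Between the groups, same-day deviations from the group means correlated with r = 0.111, 0.096 and 0.362 at days 1, 2 and 3. Those of different days had r from -0.264 to 0.149, the highest for Bcat RNAi of day 1 with control of day 2. The same-day values at days 1 and 2 lay below that, so they give the pairing little backing. No libraries were identical (lowest chi-square per degree of freedom 5.21). The steps were tested on simulated counts.

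Named transcripts are those with the largest change, at most 2 each way per comparison, past the threshold and averaging at least 1 in log2 CPM; at days 1 to 3 they also had 1 direction at all 3 days. The comparison and its rules were chosen with earlier results of these data known. The gene lists planned were not used, since transcripts carry no names, and no sequence was available to print. Alternatives covered scaling, filters, DESeq2 1.42.0, fewer libraries, no day block and each day left out.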

Additional observations from a re-analysis of the deposited data

Results flagged for a closer look

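The difference between Bcat RNAi and control was itself compared between days (edgeR quasi-likelihood test). For day 1 against days 2 and 3, 639 transcripts had a higher and 142 a lower difference at day 1. The named ones were SmedASXL_057579 (4.20 log2 units), SmedASXL_065839 (4.16), SmedASXL_005730 (-5.15) and SmedASXL_006717 (-4.59). Day 1 has 1 library per treatment, so these values cannot be told apart from a difference of a single library. In 591 of the 639, Bcat RNAi of day 1 and control of days 2 and 3 held the highest levels, as in 7.56% of all tested transcripts, an order the contrast favours. Between days 1 to 3 and days 4 to 6, 6 transcripts had a higher and 13 a lower difference early. The named ones were SmedASXL_068695 (3.90), SmedASXL_081108 (1.44), SmedASXL_005910 (-1.92) and SmedASXL_001082 (-1.74).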

How the results depend on the processing

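Of 142 counts recomputed under alternatives, 92 stayed within 1.5 times the reported value. With the 6 libraries alone, 608 transcripts were higher and 876 lower, and 323 changed at least 2-fold (128 higher, 195 lower). With no replicate block, so libraries unpaired, 368 were higher and 726 lower, 364 changed at least 2-fold (87 higher), 301 higher and 512 lower transcripts were shared with days 4 to 6, and the early and late effects differed for 1. Requiring 1 CPM in 3 libraries left 245 changed at least 2-fold (63 higher, 182 lower) and 1 early against late. DESeq2 gave 237 changed at least 2-fold (50 higher, 187 lower), 331 for day 1 against days 2 and 3 and 34 for early against late. The early against late count was 5 with TMM factors taken from abundant transcripts (4 CPM or more) and 323 with no filter. It was 167 with a term that set Bcat RNAi of day 1 and control of days 2 and 3 apart, chosen after the data were seen.

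With each day left out in turn, the counts ranged from 319 to 1643 higher, 582 to 2801 lower, 276 to 1469 changed at least 2-fold (109 to 309 higher, 167 to 1160 lower) and 38 to 105 at least 8-fold lower. Among transcripts of at least 1 CPM, 39 to 91 were at least 2-fold higher and 107 to 364 lower, both highest without day 1. Shared with days 4 to 6 were 276 to 1140 higher and 454 to 1861 lower. Early against late ranged from 1 to 83, and day 1 against days 2 and 3 from 438 to 539. The cause of these moves was not tested. Of 144 values for the named transcripts, 128 kept direction and call, 16 were no longer called, all in the early against late test, and 0 reversed. Depth limits folds of transcripts with few reads in a group.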
